A study of Saccharomyces cerevisiae with 12 samples.

Results

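The IMP dehydrogenase family of budding yeast (Saccharomyces cerevisiae) and its next enzyme in the pathway, GMP synthetase, were followed across a comparison of EUC1 mutants with wild type. The genes are IMD1 (YAR073W), IMD2 (YHR216W), IMD3 (YLR432W), IMD4 (YML056C) and GUA1 (YMR217W), and their probe sets were chosen by the systematic gene name that the array annotation gives. All 5 genes had 1 probe set each, so that 5 of 5713 S. cerevisiae probe sets are described. The family was chosen with values of these arrays known, in particular the fall of the IMD2 set in cells lacking EUC1. Members are therefore given without a test in that comparison, and their values there are a description. How far values of the other mutant also bore on the choice is not recorded, so the tests given for that mutant are not independent support.

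RNA levels were measured on Affymetrix Yeast Genome 2.0 arrays, 12 in all, in 4 groups of 3 that the series calls biological triplicates. In experiment A the strain MJK448, in which EUC1 (YMR111C) is deleted (euc1∆), was compared with the wild-type strain Y0003. In experiment B the strain MJK612, in which Euc1 carries arginine in place of a lysine (euc1-K231R), was compared with arrays of Y0003 of its own. All cultures were kept in YP medium with 2% glucose at 30°C and harvested at mid-log density (OD600 between 0.7 and 1). Euc1 is a DNA-binding protein that marks ub-hotspots, chromosomal sites where ubiquitin gathers, and the exchanged lysine is its site for SUMO attachment. Each mutant is represented by 1 strain. In the study's supplementary material the euc1-K231R allele is linked to a URA3 marker, so the exchange and the marker cannot be told apart.

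Values are RMA levels, log2 units of probe signal that were corrected for background and normalised between arrays. The wild-type arrays of experiments A and B shared no exact value and were taken as normalised apart, so levels of both experiments are set side by side with no test. EUC1 checked the labels: it lay at 9.02 to 9.15 in wild type and at 3.64 to 3.88 in euc1∆, below the value that 95% of the S. pombe sets on these arrays did not exceed (5.30), sets which have no target here. In experiment B, EUC1 lay at 9.09 to 9.25 in wild type and at 8.12 to 8.19 in euc1-K231R. EUC1 RNA was thus lower in this mutant (log2 fold change -1.02 ± 0.05 SE, limma adjusted p = 0.00019). This lower level cannot be told apart from the exchange or the marker. URA3, an enzyme of pyrimidine synthesis, lay at 8.57 to 8.73 in wild type and at 11.4 to 11.5 in euc1-K231R, and its part in the results below was not tested. The mating type a markers were at mean levels of 10.6 to 13.5. The alpha markers lay between 3.99 and 9.32, with the alpha-factor gene MF(ALPHA)1 at the S. pombe level, and the sporulation markers between 6.04 and 8.71. Of these 3 marker lists only HOP1, a meiotic chromosome protein, passed the test, lower in euc1-K231R (-0.55, limma adjusted p = 0.022). Over all sets, 0.105% in euc1∆ and 0.805% in euc1-K231R had a limma adjusted p under 0.05.

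IMP (inosine monophosphate) is the branch point of purine synthesis, from which cells make either AMP or GMP. IMP dehydrogenase oxidises IMP to XMP, the first committed step towards guanine nucleotides, and Gua1 converts XMP to GMP. Yeast holds several genes for the dehydrogenase: IMD3 and IMD4 are expressed in growing cells, whereas IMD2 is induced when GTP falls and encodes the form that resists mycophenolic acid. With ample GTP, RNA polymerase II begins upstream at the IMD2 promoter, and those transcripts are ended early by Nrd1, Nab3 and Sen1. IMD1 and IMD2 lie close to chromosome ends and are near-identical in sequence. IMD1 is interrupted in the reference strain and regarded as a probable pseudogene.

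The probe sets of IMD1 and IMD2 carry suffixes that mark a match to several transcripts. Which of both genes gave the signal of either set was not resolved, and both are called sets, not genes, in what follows. The sets of IMD3, IMD4 and GUA1 carry no such suffix. All 5 sets lay above that S. pombe limit on every array, the lowest value being 7.84 for the IMD1 set.

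In euc1∆ the sets of IMD1 and IMD2 were lower than in wild type by about the same amount, while those of IMD3, IMD4 and GUA1 differed by no more than 0.05. The IMD2 set read 10.92, 10.79 and 10.86 on the wild-type arrays and 10.16, 9.96 and 10.43 on the euc1∆ arrays. The highest mutant array therefore lay below the lowest wild-type array, and the mutant arrays were spread over 0.47 against 0.13 in wild type. The log2 fold change, mutant minus wild type, was -0.67 ± 0.11 (SE, n = 3 per group), or 1.59 times more signal in wild type. The IMD1 set read 9.89, 9.83 and 9.78 in wild type against 9.10, 9.11 and 9.36 in euc1∆. The groups again did not overlap, and in both sets replicate 3 of euc1∆ stood nearest to wild type. The log2 fold change of the IMD1 set was -0.64 ± 0.08 (SE), 1.56 times higher in wild type. Of all 5713 sets, 4 fell at least as far as the IMD2 set and 5 at least as far as the IMD1 set, each count including the set itself. This comparison chose the family, so nothing is read from these ranks.

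The constitutive isoforms and GMP synthetase showed small differences in euc1∆. IMD3 read 13.24, 13.22 and 13.21 in wild type against 13.14, 13.18 and 13.20 in euc1∆, a change of -0.05 ± 0.03 (SE). Its mutant arrays lay just below those of wild type. IMD4 read 13.64, 13.65 and 13.61 in wild type against 13.60, 13.67 and 13.69 in euc1∆, a change of 0.02 ± 0.04 (SE). GUA1 read 13.89, 13.90 and 13.94 in wild type against 13.89, 13.91 and 13.95 in euc1∆, a change of 0.00 ± 0.03 (SE). For IMD4 and GUA1 the arrays of both groups overlapped. The groups did not overlap in 3 of 5 members, against 18.3% of all sets. With limma over all sets, 6 of 5713 (0.105%) had an adjusted p under 0.05 in euc1∆. Of the 6 called sets 3 were higher and 3 lower, while an unadjusted p under 0.05 was found for 717 sets. After quantile normalisation the split was 2 higher and 5 lower. Nothing is read from these shares for the members, since this comparison chose them.

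**Figure D1:**
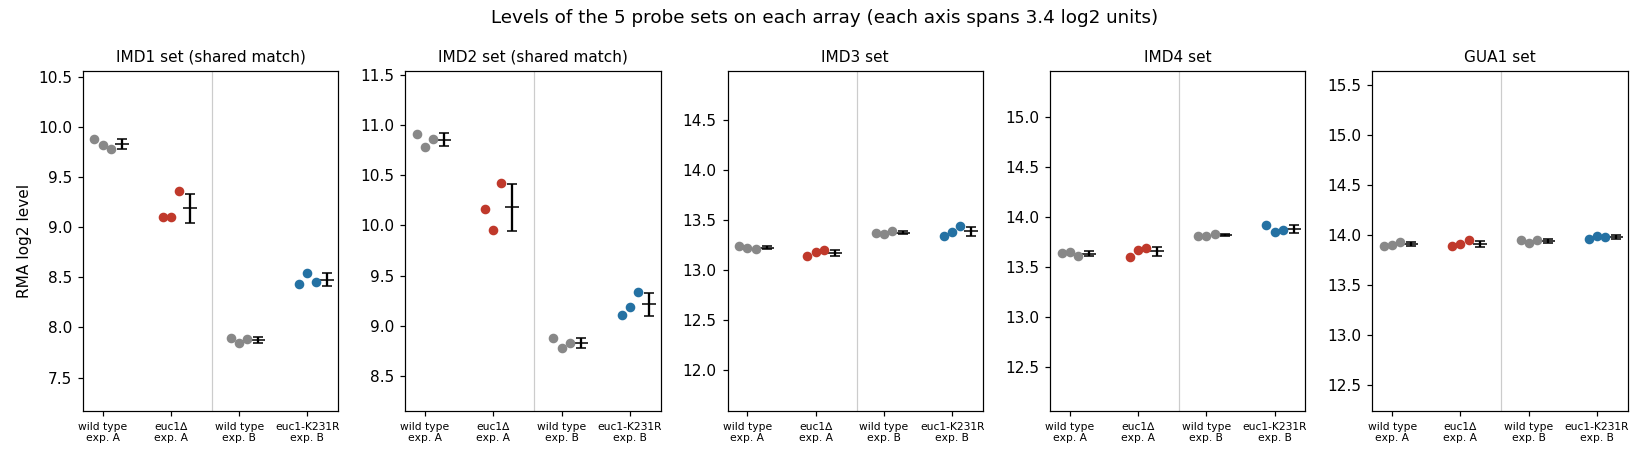
RMA log2 level (y axis) of each probe set on each of the 12 arrays, by group (x axis), with the mean and SD of 3 arrays in black; each panel spans the same number of log2 units. The IMD1 and IMD2 sets are lower in euc1∆ and higher in euc1-K231R than in the wild type of the same experiment, and both mutants lie between the wild-type levels of experiments A and B. The experiments were taken as normalised apart, so nothing is read from the order across them.

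In euc1-K231R the IMD1 set rose, the IMD2 set was higher without passing the threshold over all sets, and the remaining members differed by about 0.06 or less. The IMD1 set read 7.89, 7.84 and 7.88 in wild type against 8.43, 8.55 and 8.46 in euc1-K231R. Every mutant array lay above every wild-type array, and the arrays of a group spread over 0.05 (wild type) and 0.12 (mutant). The log2 fold change was 0.60 ± 0.05 (SE, n = 3 per group; 95% interval 0.50 to 0.71), 1.52-fold, with a limma adjusted p of 0.0013. The IMD2 set read 8.87, 8.78 and 8.83 in wild type against 9.11, 9.19 and 9.34 in euc1-K231R. These groups did not overlap either. Its log2 fold change was 0.39 ± 0.07 (SE; 95% interval 0.23 to 0.54), 1.31-fold, with a limma adjusted p of 0.052. Of all sets, 4 rose at least as far as the IMD1 set and 12 at least as far as the IMD2 set, each count including the set itself. The IMD2 set passed after sets at the S. pombe level were left out (adjusted p = 0.047) and with a trended, robust prior (adjusted p = 0.034), and it also passed without replicate 1 (adjusted p = 0.043) or replicate 3 (adjusted p = 0.046) of the mutant, all by limma. Over its 13 alternatives the adjusted p ranged from 0.034 to 0.23.

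IMD3, IMD4 and GUA1 did not pass the test in euc1-K231R. IMD3 read 13.37, 13.36 and 13.39 in wild type against 13.34, 13.38 and 13.44 in the mutant. The groups overlapped, and the log2 fold change of 0.01 ± 0.04 (SE) had a 95% interval from -0.09 to 0.11 (limma adjusted p = 0.88). IMD4 read 13.81, 13.81 and 13.83 in wild type against 13.92, 13.85 and 13.87 in the mutant, which lay apart and higher. Its log2 fold change was 0.06 ± 0.04 (SE; 95% interval -0.03 to 0.16; limma adjusted p = 0.43). GUA1 read 13.95, 13.92 and 13.95 in wild type against 13.957, 13.996 and 13.983 in the mutant, also apart and higher, by 0.04 ± 0.04 (SE; 95% interval -0.05 to 0.13; limma adjusted p = 0.62). Together these intervals reach from -0.09 to 0.16, and the intervals of both the IMD1 set and the IMD2 set lie above them. All 95% intervals given for euc1-K231R are not adjusted for the number of sets, and the IMD2 set did not pass the adjusted threshold. With limma, 46 of 5713 sets (0.805%) were called in euc1-K231R, 11 higher and 35 lower, against 1 of 5 members. After quantile normalisation the split was 26 higher and 45 lower. The arrays of both groups lay apart for 4 of 5 members, against 25.7% of all sets. These were the IMD1 and IMD2 sets, which may share signal, and IMD4 and GUA1, which did not pass the test. Nothing is read from this share.

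**Figure D2:**
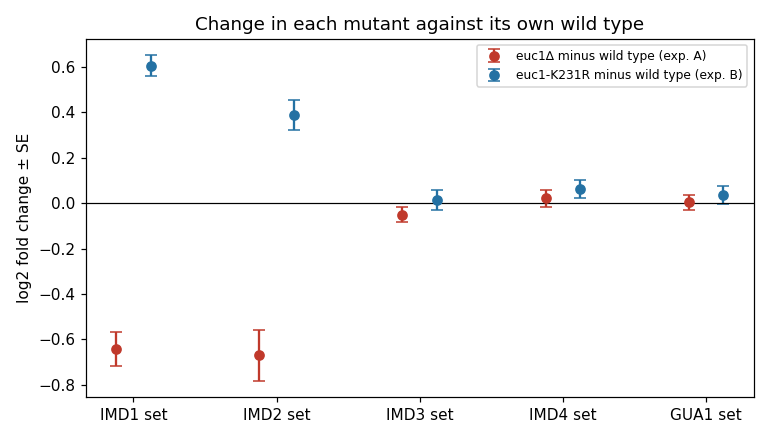
Log2 fold change of each probe set (y axis; points, with SE) in euc1∆ (experiment A) and euc1-K231R (experiment B), each from 3 mutant and 3 wild-type arrays. The IMD1 set stands at -0.64 and 0.60 and the IMD2 set at -0.67 and 0.39, whereas the sets of IMD3, IMD4 and GUA1 lie between -0.05 and 0.06.

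The 2 mutants thus stood on opposite sides of their wild types in the IMD1 and IMD2 sets. Subtracting the change in euc1-K231R from that in euc1∆ gave -1.25 ± 0.09 (SE) for the IMD1 set and -1.06 ± 0.14 (SE) for the IMD2 set. For IMD3, IMD4 and GUA1 it was -0.06, -0.04 and -0.03. These differences hold the euc1∆ comparison that chose the family and were not tested. Over all sets, the arrays lay apart and lower in euc1∆ but apart and higher in euc1-K231R for 70, and the opposite way for 65. In 2 of those 70, the IMD1 and IMD2 sets, both changes had a size of at least 0.3 (a limit chosen after the values were seen). A further 39 sets lay apart and lower in both mutants and 70 apart and higher in both.

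**Figure D3:**
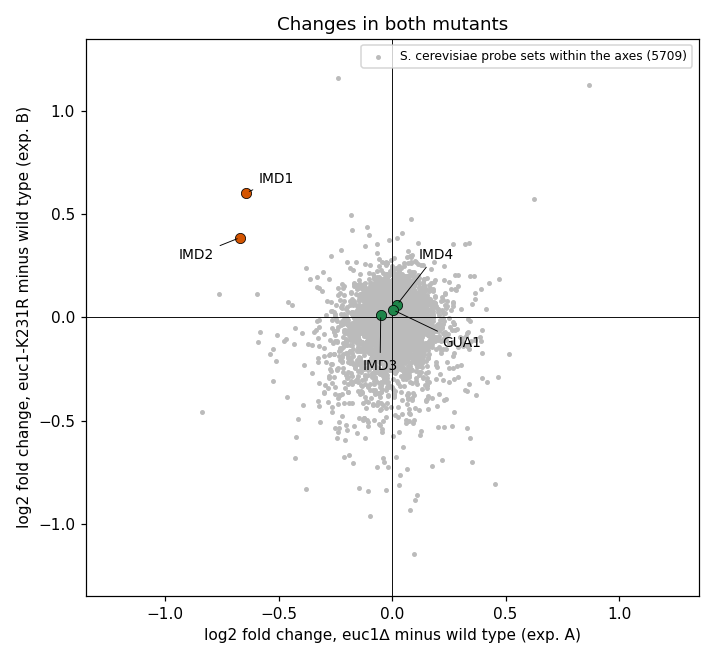
Log2 fold change in euc1∆ (x axis) against that in euc1-K231R (y axis), 1 point per S. cerevisiae probe set; the 5 members are labelled, and 4 sets outside the axes are not drawn. The IMD1 and IMD2 sets are the only ones in the upper left with a size of at least 0.3 in both mutants and arrays that do not overlap, while IMD3, IMD4 and GUA1 lie within the cloud around 0. The limit of 0.3 was chosen after the values were seen, and the change in euc1∆ chose the family. Both sets may also share signal, so nothing is read from their standing alone.

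Within an array, the IMD2 set minus the IMD1 set tracks whether both sets move by the same amount. In experiment A this difference was 1.03, 0.96 and 1.08 in wild type against 1.07, 0.85 and 1.07 in euc1∆, with means that differed by -0.03. In experiment B it was 0.98, 0.93 and 0.94 in wild type against 0.68, 0.64 and 0.88 in euc1-K231R. The mean of the mutant minus that of wild type was -0.22, with no overlap between the groups. Nothing is read from its test, since an exact two-sided permutation test of 3 arrays against 3 cannot give less than p = 0.10.

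The wild-type arrays of both experiments carried the same strain label but differed in the IMD1 and IMD2 sets by more than either mutant did from its own wild type. The mean of the IMD2 set was 10.85 ± 0.07 (SD, n = 3) in wild type of experiment A and 8.83 ± 0.05 in that of experiment B, a difference of -2.03. For the IMD1 set the means were 9.83 ± 0.05 and 7.87 ± 0.03, a difference of -1.96. Both mutants fell between these levels. In ascending order the IMD2 set had a mean of 8.83 in wild type of experiment B, 9.21 ± 0.12 in euc1-K231R, 10.18 ± 0.23 in euc1∆ and 10.85 in wild type of experiment A, and no neighbouring groups in this order overlapped. The IMD1 set gave the same order, with means of 8.48 ± 0.06 in euc1-K231R and 9.19 ± 0.15 in euc1∆. How many of all sets separate in this way across the experiments was not counted. Since the experiments were taken as normalised apart, nothing is read from this order.

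Over all sets the difference between the wild types had a median of 0.16 and a central 95% range from -0.66 to 0.87. Only 11 sets were as low as the IMD2 set and 12 as low as the IMD1 set, these sets included. IMD3 (0.15), IMD4 (0.18) and GUA1 (0.03) lay within the central range. The experiments were taken as normalised apart, so no test was made, and experiment and culture cannot be told apart here.

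**Figure D4:**
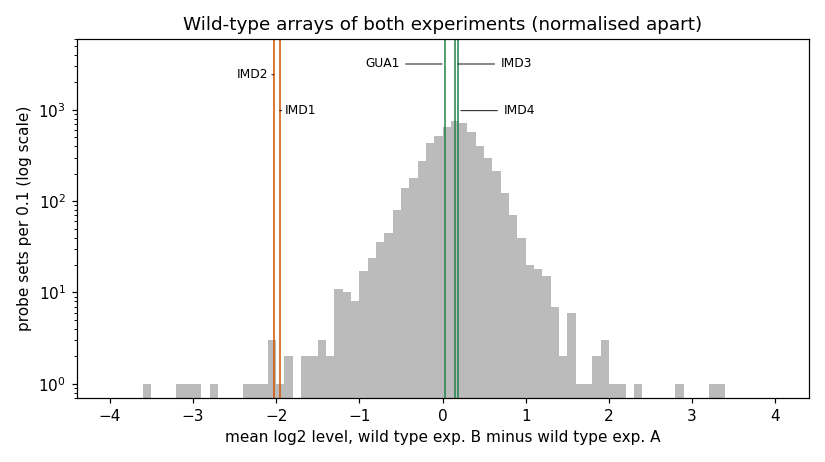
Number of S. cerevisiae probe sets (y axis, log scale) by the difference between the mean levels of both wild types, experiment B minus experiment A (x axis, log2 units, bins of 0.1). Vertical lines mark the 5 members: the IMD1 and IMD2 sets lie at -1.96 and -2.03 in the lower tail, and IMD3, IMD4 and GUA1 between 0.03 and 0.18.

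Genes of purine metabolism, activators of ADE genes and factors of transcription were read from 9 lists of 55 measured genes. These lists were chosen with earlier results of these data known, so tests of their genes are not independent support. In euc1∆ 1 of the 55 passed the test with limma, FCY22, which is related to purine-cytosine permeases. It read 7.31, 7.15 and 7.23 in wild type against 6.67, 6.56 and 6.71 in euc1∆, a change of -0.58 ± 0.06 (SE; limma adjusted p = 0.035). The call was lost when any array but euc1∆ replicate 3 was left out (limma adjusted p 0.11 to 0.20). FCY2, the main purine-cytosine permease, had a value of 0.00 and FCY21 of -0.11. In euc1-K231R none of the 55 passed (0 calls with limma; smallest adjusted p 0.14), and FCY22 had a value of -0.07. Over all sets the shares called were 0.105% in euc1∆ and 0.805% in euc1-K231R. At such shares few or no calls among 55 genes say little, and nothing is read from these counts.

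Of the genes that build IMP, 8 of 9 were matched to a probe set by gene name and none of these passed in either mutant. ADE5,7 was not matched. Their log2 fold changes had a median of 0.14 in euc1∆, where 7 of 8 were above 0, and of -0.04 in euc1-K231R, against 0.00 over all sets in each. The genes with the smallest p in euc1∆ were ADE1 (0.18 ± 0.03 SE, limma adjusted p = 0.13), ADE17 (0.26 ± 0.04 SE, limma adjusted p = 0.13), ADE13 (0.14 ± 0.03 SE, limma adjusted p = 0.23) and ADE2 (0.22 ± 0.05 SE, limma adjusted p = 0.23). ADE17 encodes an enzyme of the last steps to IMP. The one-carbon genes, which supply formyl groups for the purine ring, had a median of 0.15 in euc1∆ and of -0.01 in euc1-K231R. Smallest in p here were MTD1 (0.29 ± 0.05 SE, limma adjusted p = 0.15), SHM2 (0.17 ± 0.04 SE, limma adjusted p = 0.20) and GCV1, of the glycine cleavage system (0.24 ± 0.07 SE, limma adjusted p = 0.28). The transcription factors Bas1 and Pho2 activate these genes. Their RNAs had values of -0.14 (BAS1) and 0.08 (PHO2) in euc1∆ and of -0.02 and 0.02 in euc1-K231R, none of them called.

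On the branch to AMP, with 5 genes measured, the median was 0.03 in euc1∆ and 0.04 in euc1-K231R. ADE12, which takes IMP towards AMP, had values of 0.13 in euc1∆ and 0.02 in euc1-K231R. AMD1, which returns AMP to IMP, had values of -0.12 and 0.05. Downstream of Gua1, the GMP kinase GUK1 had values of 0.06 in euc1∆ and 0.14 ± 0.04 (SE, limma adjusted p = 0.15) in euc1-K231R. It was the furthest from 0 of the 4 genes on that list in euc1-K231R, and the list's median was 0.05 in euc1∆ and 0.01 in euc1-K231R. The salvage and uptake genes had medians of 0.02 in both mutants. The PRPP synthetases, which make the sugar phosphate on which purines are built, had medians of -0.03 in euc1∆ and 0.08 in euc1-K231R.

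Factors that act on IMD2 transcription were listed as well. The 10 early termination and start-site factors had a median of -0.03 in euc1∆ and of 0.01 in euc1-K231R, and none passed. In euc1-K231R the values furthest from 0 were those of SEN1, the helicase that ends such transcripts (0.20 ± 0.07 SE, limma adjusted p = 0.19), PCF11, a cleavage factor subunit (0.16 ± 0.04 SE, limma adjusted p = 0.15), and RPB9, an RNA polymerase II subunit (-0.13 ± 0.04 SE, limma adjusted p = 0.18). NRD1 had values of 0.04 and -0.04 in euc1∆ and euc1-K231R, and NAB3 of -0.01 and 0.05. The 5 genes for elongation factors and 6-azauracil response, a drug that lowers GTP, had medians of -0.04 and -0.01. The kinase CTK1 was furthest from 0 among them in euc1-K231R (-0.17 ± 0.05 SE, limma adjusted p = 0.14).

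**Figure D5:**
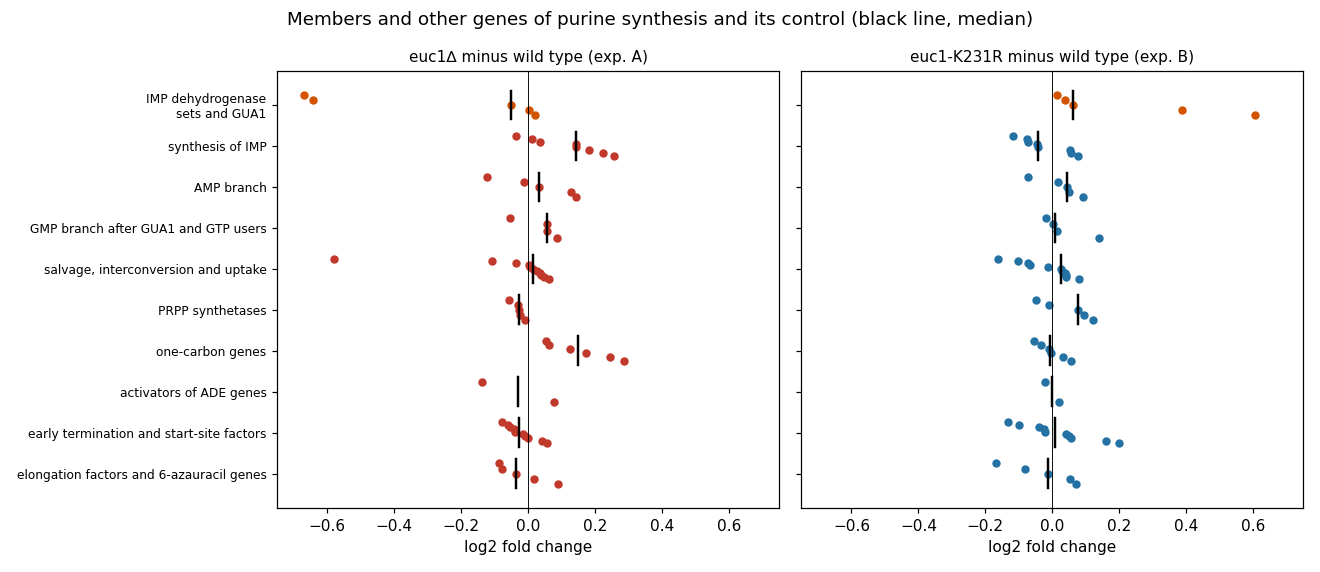
Log2 fold changes (x axis) of the 5 members and of the genes on 9 lists around them, 1 point per gene and a black line at each median, for euc1∆ (left) and euc1-K231R (right). The IMD1 and IMD2 sets lie furthest out in both panels with opposite sign, FCY22 at -0.58 is the outlying point of the salvage list in euc1∆, and the medians of the lists lie between -0.04 and 0.15. The change in euc1∆ chose the family and both sets may share signal, so nothing is read from their standing furthest out.

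Neighbouring genes were taken from the RefSeq gene order of assembly R64, 2 on each side, for IMD2 on chromosome VIII, IMD3 on chromosome XII, and IMD4 and GUA1 on chromosome XIII. IMD1 was not listed there. Of the 16 neighbours 12 had a probe set under their own gene name. None of these passed with limma in either mutant (smallest adjusted p 0.29 in euc1∆ and 0.18 in euc1-K231R). At the shares called over all sets (0.105% in euc1∆ and 0.805% in euc1-K231R), nothing is read from this. The genes directly beside IMD2, PHO12 and YHR218W, had no probe set under their own names. Around IMD2 only YHR214C-E, 2 places away, had one. It lay at a mean of 4.43 in wild type of experiment A and 4.63 in that of experiment B, inside the range of the S. pombe sets. For IMD3 the nearest genes on either side, ATG23 and CNA1, had values of -0.05 and 0.08 in euc1∆ and of -0.07 and 0.03 in euc1-K231R. For GUA1, ESC1 had the value furthest from 0 in euc1∆ (-0.17). The RefSeq order places SNR54, a small nucleolar RNA with no probe set here, beside IMD4.

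Likeness of pattern was measured as Pearson's r over the 12 arrays, each gene centred on the mean of its experiment, and is given as a description. For the IMD2 set the highest values were those of MRPL36, a mitochondrial ribosomal protein (r = 0.95), the IMD1 set (0.94) and FAA3, an acyl-CoA synthetase (0.91). For the IMD1 set they were MRPL36 (0.96), the IMD2 set (0.94) and NUP2, a nuclear pore protein (0.92). The IMD1 and IMD2 sets may share signal, so nothing is read from their r with each other. Genes were centred by experiment and not by group, so r of both sets also holds the euc1∆ change that chose the family. MRPL36 changed less than either set, with log2 fold changes of -0.12 in euc1∆ and 0.12 in euc1-K231R. For IMD3 the nearest were BIR1 (0.92), NUP192 (0.90) and MKT1 (0.89), for IMD4 MYG1 (0.92), IME4 (0.90) and SRP40 (0.89), and for GUA1 CLB6 (0.91), SXM1 (0.87) and UGO1 (0.86). IME4 lay at a mean of 4.23, inside the range of the S. pombe sets. Between the family's other pairs r was lower, from 0.10 for IMD3 with IMD4 to 0.69 for the IMD2 set with IMD3. Given the possible shared signal, nothing is read from this contrast. Within 1 experiment r rests on 6 arrays, and some of these values differed between the experiments. The IMD1 set had r of 0.90 with IMD3 in experiment A but 0.22 in experiment B. With GUA1 it had 0.07 in experiment A but 0.84 in experiment B. IMD4 with GUA1 had 0.42 in experiment A and 0.39 in experiment B. The arrays of a group spread over only 0.03 to 0.06 for GUA1, so nothing is read from its values.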

How the data were processed

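Deposited were RMA values (log2) of 10928 probe sets on 12 arrays, and 2 tables with the authors' comparisons (fold changes on the log2 scale, p-values), from which only the column of gene names was taken. Their processing notes name RMA and limma without versions. Symbols came from a RefSeq table (R64); no source used here names the build behind the array annotation, and no coordinates are printed. The 6 arrays of each experiment were fitted by limma 3.58.1 (lmFit and eBayes, R 4.3.3) over 5713 S. cerevisiae probe sets, of which 132 match several transcripts and were kept. P-values were adjusted after Benjamini and Hochberg, and a set was called under 0.05. The fit was tested on simulated data. Array medians lay between 10.4 and 10.6, and arrays of a group correlated with r of 0.996 to 0.999. With 3 arrays per group, their number limits the precision.

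The members and gene lists were chosen with earlier results of these data known. Named were all members, EUC1, up to 4 genes with the smallest p per list and every called one, neighbours, and the 3 sets most alike; URA3, FCY2, NRD1, NAB3 and the named marker genes were added after their values were seen. Pairs of arrays shared 179 to 216 exact values within experiment A, 42 to 86 within experiment B and 0 between them. Alternatives were quantile normalisation, median centring, other choices of probe sets, another prior, a 12-array fit, a replicate block and leaving out single arrays. Figures were drawn with matplotlib 3.10.9.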

Additional observations from a re-analysis of the deposited data

Results flagged for a closer look

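In the IMD1 set every euc1∆ array lay below its wild type and every euc1-K231R array above its own, with a euc1∆ effect minus euc1-K231R effect of -1.25 (log2). The IMD2 set showed the same opposite sides on every array, with -1.06. Neither difference was tested, since the euc1∆ comparison chose the family. Of all 5713 sets, 70 lay apart and lower in euc1∆ but apart and higher in euc1-K231R, and 65 the opposite way. The IMD1 and IMD2 sets may share signal, so they are not taken as separate observations.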

How the results depend on the processing

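Over 13 alternatives the IMD1 set kept its call in euc1-K231R (adjusted p 0.00062 to 0.02), and in euc1∆ both the IMD1 set (-0.73 to -0.60) and the IMD2 set (-0.79 to -0.56) kept their direction. The IMD2 set in euc1-K231R passed the threshold in 4 of 13, at 0.39 when sets at the S. pombe level were left out and with the trended, robust prior, and ranged from 0.32 to 0.44 when single arrays were left out. Members called in euc1-K231R were then 2, and 1 to 2 without single arrays. IMD3 in euc1-K231R turned to -0.0046 after median centring and ranged from -0.014 to 0.034 without single arrays. The difference of effects of the IMD1 set ranged from -1.33 to -1.20 without single arrays.

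The number of called sets moved most. In euc1∆ it went from 6 to 2 over all probe sets, 23 with the trended, robust prior and 16 in the 12-array fit, and without single arrays from 2 to 24 (24 without euc1∆ replicate 3). In euc1-K231R it went from 46 to 71 after quantile normalisation, 104 after median centring, 20 over all probe sets, 74 with the trended, robust prior and 130 in the 12-array fit, and without single arrays from 13 to 102 (13 without euc1-K231R replicate 2 and 102 without its replicate 3). The causes were not tested. FCY22 in euc1∆ lost its call in 8 of 14 alternatives, which were added after seeing the data.

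The replicate numbers were used as a replicate block, which gave 1 called set in euc1∆ and 27 in euc1-K231R. Deviations of same-numbered arrays correlated with r of -0.19, 0.11 and -0.21 in experiment A and of -0.22, -0.09 and 0.31 in experiment B, so the numbers were not taken to pair the arrays.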
